A study of Mus musculus with 6 samples.

Results

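The mitochondrial respiratory chain and ATP synthase are built from subunits of which most are encoded in the nucleus. The genes described here are the nuclear genes whose symbol starts with Nduf, Uqcr, Cox4, Cox5, Cox6, Cox7, Cox8 or Atp5, together with Sdha, Sdhb, Sdhc, Sdhd and Cyc1. They were chosen by name alone among probe sets annotated to exactly 1 gene, and each gene was represented by the probe set with the highest mean log2 intensity over all arrays. This gave 91 genes of the 18193 genes on the arrays. Among the 91 were 34 subunits of complex I, 8 complex I assembly factors, 4 subunits of complex II, 9 of complex III, 19 of complex IV and 17 of ATP synthase. Ndufa11, Ndufs6 and Cox7b had no probe set annotated to them alone and were not analysed here as members.

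RNA was measured in activated CD8 T cells of P14 LCMV TCR transgenic mice on the C57BL/6 background, aged 8 to 12 weeks, whose T cells recognise a glycoprotein peptide of the virus LCMV. Spleen cells received the peptide for 48 hours, were infected with retrovirus 18 hours after its addition, and after removal of the peptide grew in IL-2 for another 48 hours, so that cytotoxic T cells (CTL) were collected on day 4. The virus carried either GFP alone (empty vector, evGFP) or a fusion of GFP with KLF2 (GFP-KLF2), a zinc finger transcription factor of resting T cells that is lost on strong activation. GFP-positive cells were sorted in both groups, and 3 biological replicates per group were hybridised to Affymetrix 3' mouse expression arrays. The comparison asked what changes in activated CD8 T cells when KLF2 is kept on. Both groups shared the transgenic receptor, the peptide, the retroviral infection, GFP and IL-2, the KLF2 came from a viral promoter as a fusion protein, and the array's own KLF2 probes lie outside the construct, so that these probes do not check the labels. Transcripts of CD8 T cells were bright in both groups, and 1 of 8 measured CD8 T cell markers passed the test (Cd8b1, a chain of CD8, higher by 0.45 on the log2 scale, limma adjusted p = 0.0107), with summed marker intensity of 74861 to 78917 in evGFP and 79143 to 82237 in GFP-KLF2 arrays.

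Oxidative phosphorylation passes electrons from NADH through complex I, or from succinate through complex II, to coenzyme Q, then through complex III and cytochrome c to complex IV, where oxygen is reduced. The protons that complexes I, III and IV pump across the inner membrane drive ATP synthase. Activated T cells enlarge their mitochondria while they grow and divide, and complexes I, III, IV and V combine nuclear subunits with a small set of subunits encoded in mitochondrial DNA.

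Transcripts of most nuclear subunits stayed close to their level in evGFP cells when KLF2 was maintained. A small group fell, led by Ndufa4 of complex IV, the complex I assembly factors Ndufaf6 and Ndufaf4, and Atp5g1 of ATP synthase, while Cox7a1, the muscle and heart form of a complex IV subunit, was the 1 member that rose. The limma test, with Benjamini-Hochberg adjustment over all probe sets and an adjusted p under 0.046 as the threshold, called 13 of the 91 members lower in GFP-KLF2 cells (14.3%) and 1 higher (1.10%), and 77 did not pass. Over all genes 8.35% were lower and 6.22% higher. Members were mostly bright, and among all genes with a mean log2 intensity of at least 10 the shares were 15.8% lower and 11.7% higher. Of the 74 members above that level 10 were lower (13.5%) and 0 higher, so that the share of lower calls was near that of other bright genes. At an unadjusted limma p under 0.05, 29 members were lower and 5 higher, beside 17.7% lower and 12% higher of all genes and 31.5% lower and 18.9% higher of those with a mean of at least 10.

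The sizes were small. The median log2 difference (GFP-KLF2 minus evGFP) over the 91 members was -0.08, beside -0.01 over all genes and -0.07 over genes with a mean of at least 10. It was -0.12, -0.09 and -0.06 in the pairs of arrays with replicate numbers 1, 2 and 3. The difference was below 0.2 in size for 62 members, and the 95% confidence interval lay within a 1.5-fold change for 81 and within a 2-fold change for 88. All 3 GFP-KLF2 arrays lay below all 3 evGFP arrays for 45 members (49.5%) and above them for 17 (18.7%), and the groups overlapped for 29. Over all genes these shares were 20.6% below and 14.3% above. Among genes with a mean of at least 10 they were 38.1% below and 21.9% above. For the 74 members with such a mean they were 54.1% below and 21.6% above.

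**Figure D1:**
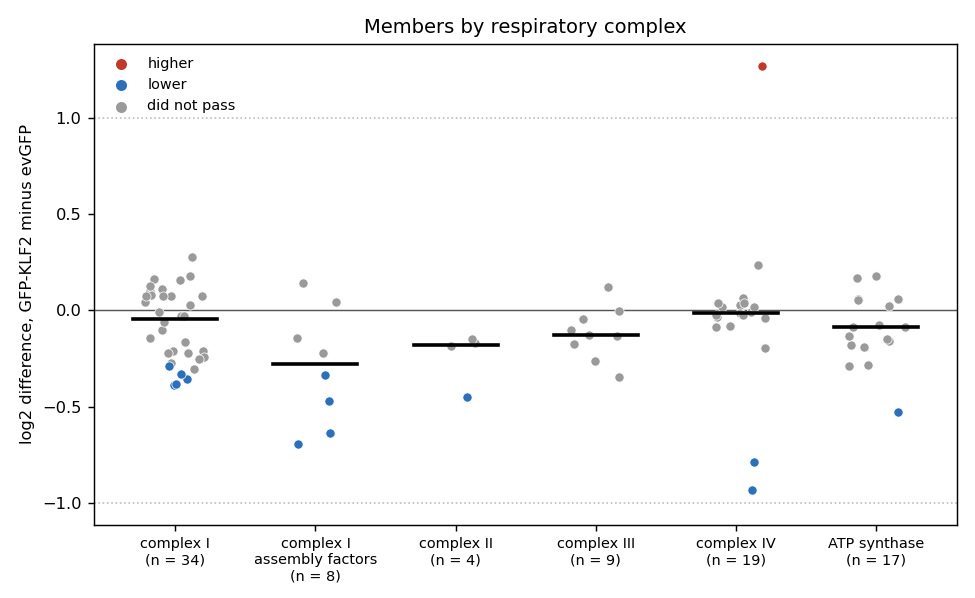
Log2 difference between GFP-KLF2 and evGFP cells (y axis) for each of the 91 members, by complex (x axis), with the median of each complex as a bar and members that passed the limma test in colour. Most points lie within 0.2 of 0, Cox7a1 stands alone above 1, and the median of the 8 assembly factors is -0.28 against -0.04 for the 34 subunits of complex I.

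Ndufa4 was named as a complex I subunit and is now placed in complex IV, where it is one of the last subunits to be added. Its log2 intensity was 12.83, 12.85 and 12.62 in the evGFP arrays and 11.90, 11.98 and 12.06 in the GFP-KLF2 arrays. The groups did not overlap, and the gap between them exceeded the spread within either. The mean fell from 12.77 ± 0.13 to 11.98 ± 0.08 (SD, n = 3), a log2 difference of -0.79 (SE 0.09, 95% confidence interval -1.002 to -0.57) or 1.72-fold lower, with a limma adjusted p of 0.00323. This was the lowest adjusted p among the members. Its paralog Ndufa4l2, which replaces it under low oxygen in some cells, was dim on these arrays at 6.70 ± 0.12 and 6.72 ± 0.03 and differed by 0.02 (-0.18 to 0.22).

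The complex I assembly factors were the class with the largest share of lower calls. They bind building blocks of complex I while the enzyme is put together and are not part of the finished complex. Of 8 measured, 4 fell, 0 rose and 4 did not pass, with a median log2 difference of -0.28 and a range of -0.69 to 0.14. In 6 of the 8 all GFP-KLF2 arrays lay below all evGFP arrays, and in the other 2 the groups overlapped. Over all genes 20.6% lay fully below and 8.35% were called lower. Among genes with a mean log2 of at least 10 these shares were 38.1% and 15.8%. The lower calls of the assembly factors numbered 3 without evGFP replicate 3 or GFP-KLF2 replicate 3 and 2 without any 1 of the other 4 arrays.

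Ndufaf6 helps to make the ND1-containing part of complex I. Its log2 intensity was 9.37, 9.15 and 9.26 in evGFP and 8.61, 8.48 and 8.60 in GFP-KLF2 arrays, and the lowest evGFP array lay above the highest GFP-KLF2 array by more than the range of either group. The difference was -0.69 (SE 0.09, 95% confidence interval -0.90 to -0.49, limma adjusted p = 0.00386), which is 1.62-fold lower. Ndufaf4, another factor of complex I assembly, gave 10.61, 10.54 and 10.34 in evGFP and 9.78, 9.92 and 9.88 in GFP-KLF2 arrays. It was 1.56-fold lower (log2 difference -0.64, SE 0.09, limma adjusted p = 0.0071). Its other probe set was lower as well, by -0.70 on the log2 scale with a limma adjusted p of 0.017. Ndufaf5, an enzyme that hydroxylates the complex I subunit Ndufs7, fell by 0.47 on the log2 scale (limma adjusted p = 0.0235), from 8.43, 8.45 and 8.53 to 8.00, 7.84 and 8.16. Ndufaf8, its partner protein, fell by 0.34 (limma adjusted p = 0.0354), from 10.68, 10.72 and 10.53 to 10.28, 10.31 and 10.33. The other probe set of Ndufaf8 differed by -0.26 and did not pass (limma adjusted p = 0.0925). The log2 differences of Ndufaf1 and Ndufaf2 were -0.14 and -0.22, and those of Ndufaf3 and Ndufaf7 were 0.14 and 0.04, and none of the 4 passed.

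Complex I itself, the NADH dehydrogenase, showed smaller differences. Of its 34 nuclear subunits 5 fell (14.7%), 0 rose and 29 did not pass. The median was -0.04 (-0.001 after cyclic loess) and the range -0.39 to 0.28. Over all genes 8.35% were lower and 6.22% higher, and the shares were 15.8% and 11.7% among genes with a mean log2 of at least 10. The lower members were the core subunit Ndufs1 and the accessory subunits Ndufa5, Ndufab1, Ndufb5 and Ndufa9. Ndufa5 and Ndufb5 are structural subunits of the enzyme's arms, Ndufab1 is the mitochondrial acyl carrier protein, and Ndufa9 helps to hold the arms together.

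Ndufa5 had log2 intensities of 11.30, 11.27 and 11.11 in evGFP and 10.76, 10.90 and 10.85 in GFP-KLF2 arrays, and the difference was -0.39 (SE 0.08, limma adjusted p = 0.0271). Its other probe set differed by -0.23 and did not pass. Ndufab1 went from 12.75, 12.58 and 12.56 to 12.21, 12.23 and 12.30, a difference of -0.38 (SE 0.08, limma adjusted p = 0.0269). Its other single-gene probe sets, all dimmer, did not pass, and the brightest of them differed by -0.31 (limma adjusted p = 0.157). A bright probe set shared by Ndufab1 and its pseudogene Ndufab1-ps was lower too, by -0.41 with a limma adjusted p of 0.0103, and reads from gene and pseudogene cannot be told apart there. Ndufb5 differed by -0.35 (SE 0.08, limma adjusted p = 0.0247), with 12.53, 12.49 and 12.55 against 12.14, 12.11 and 12.25. Its other probe set differed by -0.28 and did not pass (limma adjusted p = 0.0477). Ndufa9 differed by -0.29 (SE 0.07, limma adjusted p = 0.0398), with 12.07, 11.99 and 12.05 against 11.77, 11.72 and 11.76. In the brightest probe set of each of the 4 the groups did not overlap.

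The core nuclear subunits of complex I carry the flavin and the iron-sulfur clusters along which electrons travel. In 5 of the 6 measured the 3 GFP-KLF2 arrays lay below the evGFP arrays, and the median difference of the 6 was -0.21. The share fully below was 20.6% over all genes and 38.1% among genes with a mean log2 of at least 10. Ndufs1, the largest of the core subunits, held 10.76, 10.57 and 10.63 in evGFP and 10.36, 10.28 and 10.33 in GFP-KLF2 arrays. Its difference of -0.33 (SE 0.08) passed with a limma adjusted p of 0.0387. Ndufs3, Ndufs7, Ndufs8 and Ndufv2 differed by -0.21, -0.22, -0.22 and -0.16, with limma adjusted p from 0.103 to 0.216. Ndufv1, which binds NADH and flavin, differed by 0.13 in the opposite direction (95% confidence interval -0.05 to 0.31, limma adjusted p = 0.367). Among the 28 accessory subunits 4 were lower and the median was -0.02, with Ndufs4 at the upper end (0.28, limma adjusted p = 0.111). With the replicate block the lower calls of complex I became 6, the added one being the accessory subunit Ndufa12 (difference -0.31, limma adjusted p = 0.0553 without and 0.0407 with the block). The lower calls of complex I depended on the settings. Their number was 0 after cyclic loess normalization of the arrays, 2 without evGFP replicate 3, 1 without GFP-KLF2 replicate 3 and 0 without any 1 of the other 4 arrays.

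Complex II, succinate dehydrogenase, also works as an enzyme of the citric acid cycle and has no subunit encoded in mitochondrial DNA. In the brightest probe set of all 4 of its genes every GFP-KLF2 array lay below every evGFP array, and 1 of the 4 passed the test. The share of genes fully below was 20.6% over all genes and 38.1% among those with a mean log2 of at least 10. Sdha, the flavoprotein that oxidises succinate, gave 11.95, 11.85 and 11.98 in evGFP and 11.49, 11.39 and 11.56 in GFP-KLF2 arrays. Its mean fell 1.37-fold (log2 difference -0.45, SE 0.08, limma adjusted p = 0.0139), and a second bright probe set was lower by -0.30 (limma adjusted p = 0.0413). The iron-sulfur subunit Sdhb and the membrane anchors Sdhc and Sdhd differed by -0.17, -0.18 and -0.15, with limma adjusted p of 0.206, 0.178 and 0.271. The dimmer probe sets of Sdhc and Sdhd differed by -0.05 and -0.07, and in both the groups overlapped. After cyclic loess the median of complex II went from -0.18 to -0.09. Without evGFP replicate 1, GFP-KLF2 replicate 1 or GFP-KLF2 replicate 2, Sdha did not pass, with a limma adjusted p of up to 0.0513.

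Complex III, the cytochrome bc1 complex, had 0 of 9 members called in either direction by limma at the adjusted threshold. Its median difference was -0.13 and its range -0.34 to 0.12, and 8 of 9 differences were negative. Over all genes 51.6% were negative, and 59.1% among genes with a mean log2 of at least 10. After cyclic loess the median of complex III was -0.05, and Uqcrh and Uqcrq turned positive, at 0.03 and 0.07. Cyc1, cytochrome c1, came nearest to passing with 11.84, 11.73 and 11.86 in evGFP and 11.46, 11.35 and 11.59 in GFP-KLF2 arrays, a difference of -0.34 (SE 0.09, limma adjusted p = 0.0469). With the replicate number as a block its limma adjusted p was 0.0267, so that the lower calls of complex III became 1, and without GFP-KLF2 replicate 3 Cyc1 passed as well. The core proteins Uqcrc1 and Uqcrc2 differed by -0.26 and -0.18, and the Rieske protein Uqcrfs1 by 0.12, and none of these passed.

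In ATP synthase, which turns the proton gradient into ATP, 1 of 17 members fell (5.88%) and 0 rose. The median was -0.09 (-0.01 after cyclic loess) and the range -0.53 to 0.18. Over all genes 8.35% were lower and 6.22% higher, and among genes with a mean log2 of at least 10 the shares were 15.8% and 11.7%. The lower member was Atp5g1, 1 of 3 nuclear genes (Atp5g1, Atp5g2 and Atp5g3) whose proteins mature to the same subunit c of the membrane rotor. Atp5g1 had log2 intensities of 12.64, 12.57 and 12.47 in evGFP and 11.96, 12.12 and 12.02 in GFP-KLF2 arrays. The groups were well apart, and the fall was 1.44-fold (log2 difference -0.53, SE 0.08, 95% confidence interval -0.73 to -0.33, limma adjusted p = 0.00909). The other genes of subunit c differed less, Atp5g3 by -0.19 (-0.35 to -0.03) and Atp5g2 by -0.09 (-0.26 to 0.09), and neither passed. The differences between the 3 genes were not tested. Atp5a1 and Atp5b, which encode the catalytic head, differed by -0.29 and -0.28 with limma adjusted p of 0.0666 and 0.0561. With the replicate block these were 0.0418 and 0.0456, so that the lower calls of ATP synthase became 3. Atp5d and Atp5h lay at the other end, with all GFP-KLF2 arrays above the evGFP arrays and differences of 0.17 and 0.18 that did not pass.

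**Figure D2:**
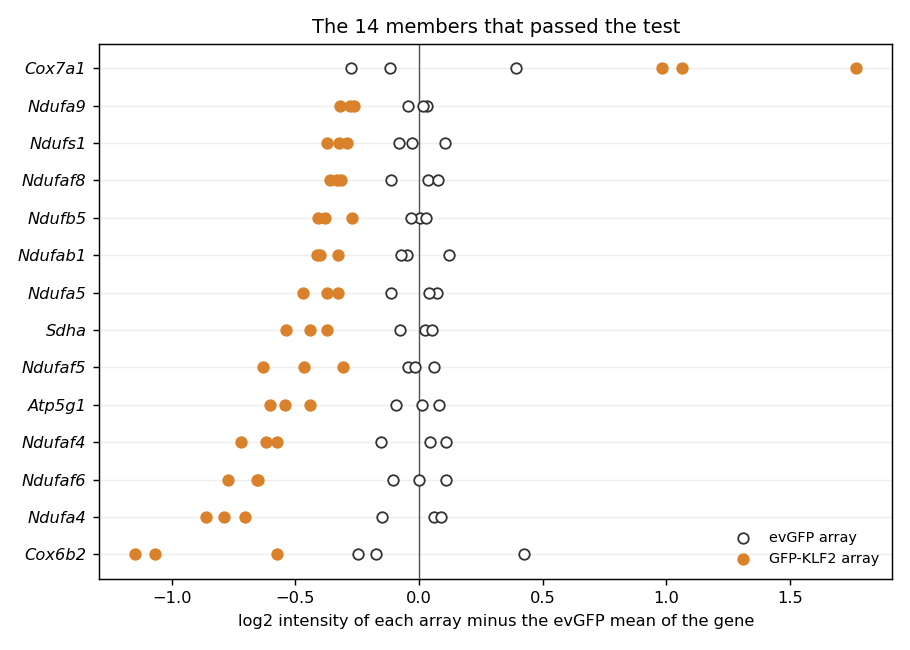
Log2 intensity of each array relative to the evGFP mean of the gene (x axis) for the 14 members that passed the limma test (y axis), with evGFP arrays open and GFP-KLF2 arrays filled. In every one of the 14 the 3 filled points lie to one side of the 3 open points, above them for Cox7a1 and below them for the other 13, and the points of Cox7a1 and Cox6b2 are the most widely spread.

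Complex IV, cytochrome c oxidase, held both the single rise and the largest falls, while the rest of the complex hardly differed. Of 19 members 1 rose (5.26%), 2 fell (10.5%) and 16 did not pass, and the median was -0.01 (0.05 after cyclic loess). Over all genes 6.22% were higher and 8.35% lower. Several complex IV subunits exist as a widely used form and a form found mainly in striated muscle, lung or testis. Of the 8 tissue-limited forms measured 1 rose and 1 fell. Among the other 11 members 1 fell, which was Ndufa4, and 0 rose.

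Cox7a1 is the heart and muscle form of subunit VIIa and is also made in brown fat. Its log2 intensity was 5.38, 5.54 and 6.04 in evGFP and 6.72, 6.63 and 7.42 in GFP-KLF2 arrays. The mean rose from 5.65 ± 0.35 to 6.93 ± 0.43 (SD, n = 3), 2.41-fold, with a log2 difference of 1.27 (SE 0.24, 95% confidence interval 0.70 to 1.84, limma adjusted p = 0.0172). Its evGFP level was dim, at the median of all probe sets of an array (5.64 to 5.67), and only the GFP-KLF2 arrays bring its mean above the level of 6 used to remove dim probe sets, so that the fold is approximate. The array with replicate number 3 was the highest in both groups, the pairs of equal number differed by 1.34, 1.10 and 1.38, and the limma adjusted p with the replicate block was 0.000803. Without evGFP replicate 1 or evGFP replicate 2 Cox7a1 did not pass, with a limma adjusted p of up to 0.0684. The widely used form Cox7a2 had 13.50 ± 0.02 and 13.54 ± 0.03 and differed by 0.04 (-0.12 to 0.20). Cox7a2l, a related protein that joins complexes III and IV into supercomplexes, had all GFP-KLF2 arrays above the evGFP arrays and a difference of 0.24 (limma adjusted p = 0.0648). It passed after cyclic loess, at 0.32 with a limma adjusted p of 0.0244.

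Markers of tissues that use Cox7a1 were not among the genes that rose. Of 9 striated muscle genes 0 rose and 1 fell (Actn2, a sarcomere protein, log2 difference -0.94, limma adjusted p = 0.00695), and their summed intensity was 701 to 752 in evGFP and 614 to 727 in GFP-KLF2 arrays. Of 3 brown fat genes 0 were called in either direction, with sums of 56.3 to 66.1 and 56.1 to 61.6, and Ucp1, the defining gene of brown fat, lay near the floor of the arrays at a log2 intensity of 4.16 ± 0.06 and 4.05 ± 0.17. Of 4 B cell, 6 myeloid and 4 erythroid genes 0 passed in either direction, and of 4 CD4 T cell genes 1 rose (Zbtb7b, a transcription factor of that lineage, 0.45, limma adjusted p = 0.0429). The summed intensity of the CD4 T cell genes was 301 to 340 in evGFP and 373 to 409 in GFP-KLF2 arrays, and that of the myeloid genes was 289 to 306 and 326 to 360, so that both sums separated the groups. The sum of the B cell genes overlapped, at 247 to 263 in evGFP and 232 to 360 in GFP-KLF2 arrays. Their median difference was 0.27, and 2 of the 4 were higher at an unadjusted limma p under 0.05. Cd4 itself did not pass, nor did Csf1r or Lyz2 of myeloid cells, and the part of such cells in the results was not tested. In a bulk sample fewer cells that express a gene and less of its RNA in each cell cannot be told apart.

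Cox6b2, the testis form of subunit VIb, fell. It had 8.94, 8.27 and 8.34 in evGFP and 7.94, 7.37 and 7.45 in GFP-KLF2 arrays, and replicate 1 was the brightest in both groups. The difference was -0.93 (SE 0.21, 95% confidence interval -1.43 to -0.43, limma adjusted p = 0.032), 1.91-fold, and the 3 pairs differed by -0.998, -0.90 and -0.89. The limma adjusted p with the replicate block was 0.0014, and Cox6b2 passed in only 1 of the 6 fits that leave out 1 array, the one without GFP-KLF2 replicate 1. The widely used partner Cox6b1 had 13.56 ± 0.02 and 13.55 ± 0.07 and differed by -0.01 (-0.18 to 0.17). The remaining isoform groups showed no call in any member. Their tissue-limited forms were dim, with a mean log2 over all arrays of 6.64 for Cox4i2, 6.91 for Cox6a2, 6.20 for Cox8b and 7.49 for Cox8c. At such levels a narrow interval does not show that an expressed form stayed unchanged. Cox4i1 differed by 0.02 (-0.14 to 0.18) and its lung and low-oxygen form Cox4i2 by 0.03 (-0.17 to 0.23). Cox6a1 differed by -0.03 (-0.20 to 0.13) and its muscle form Cox6a2 by -0.09 (-0.27 to 0.09). Cox8a differed by 0.04 (-0.12 to 0.20), its muscle form Cox8b by -0.02 (-0.32 to 0.27) and its testis form Cox8c by -0.04 (-0.26 to 0.19). Cox7b2, the testis form of subunit VIIb, lay at the floor of the arrays (3.41 ± 0.04 and 3.38 ± 0.07) and differed by -0.02 (-0.20 to 0.15).

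**Figure D3:**
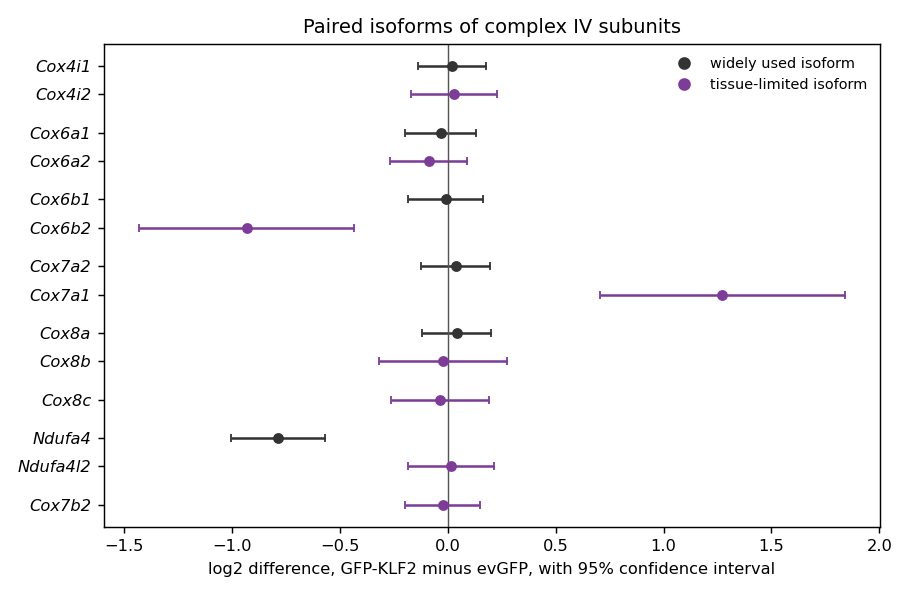
Log2 difference between GFP-KLF2 and evGFP cells (x axis) with its 95% confidence interval for widely used and tissue-limited isoforms of complex IV subunits (y axis). Cox7a1 at 1.27, Cox6b2 at -0.93 and Ndufa4 at -0.79 stand away from 0, and each interval of the other 11 isoforms includes 0.

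The promoters of the lower and higher members were read to show which sequences stand at their start sites. RefSeq's table for GRCm38.p6 held a promoter for 74 of the 91 members, 11 of the 13 lower ones among them, and the 250 bases before each start were searched on both strands for fixed motifs. Shown 5′ to 3′ on the gene's strand are those of the 1 higher member, Cox7a1 (chr7:30183921-30184170, + strand), and of 4 of the lower members, Ndufa4 (chr6:11907451-11907700, - strand), Atp5g1 (chr11:96075632-96075881, - strand), Ndufaf4 (chr4:24897833-24898082, + strand) and Sdha (chr13:74350241-74350490, - strand). Capitals mark matches to the motifs named after the sequences.
Cox7a1: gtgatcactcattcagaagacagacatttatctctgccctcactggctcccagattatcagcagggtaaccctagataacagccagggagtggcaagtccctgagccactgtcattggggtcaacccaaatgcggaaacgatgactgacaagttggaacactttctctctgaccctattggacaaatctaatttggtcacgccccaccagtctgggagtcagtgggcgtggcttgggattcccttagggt
Ndufa4: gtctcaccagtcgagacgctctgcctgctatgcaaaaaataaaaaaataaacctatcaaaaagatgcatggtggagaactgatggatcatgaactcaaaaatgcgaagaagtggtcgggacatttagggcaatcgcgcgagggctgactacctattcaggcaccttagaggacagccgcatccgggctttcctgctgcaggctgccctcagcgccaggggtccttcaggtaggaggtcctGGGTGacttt
Atp5g1: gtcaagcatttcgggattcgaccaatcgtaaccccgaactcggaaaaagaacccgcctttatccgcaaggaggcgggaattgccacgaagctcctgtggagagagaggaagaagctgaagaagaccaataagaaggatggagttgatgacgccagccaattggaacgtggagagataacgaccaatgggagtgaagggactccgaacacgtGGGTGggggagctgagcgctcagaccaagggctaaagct
Ndufaf4: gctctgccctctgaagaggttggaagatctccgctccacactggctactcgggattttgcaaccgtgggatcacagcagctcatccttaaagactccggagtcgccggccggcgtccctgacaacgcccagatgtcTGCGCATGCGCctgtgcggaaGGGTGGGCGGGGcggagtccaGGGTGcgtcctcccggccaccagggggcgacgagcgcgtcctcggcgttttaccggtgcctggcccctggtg
Sdha: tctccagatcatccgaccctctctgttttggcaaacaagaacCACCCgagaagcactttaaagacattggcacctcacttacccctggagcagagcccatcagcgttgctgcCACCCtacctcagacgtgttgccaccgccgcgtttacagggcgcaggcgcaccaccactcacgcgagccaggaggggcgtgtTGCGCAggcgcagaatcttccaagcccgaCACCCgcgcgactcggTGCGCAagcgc

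The motifs were GCGCATGC and its shorter form TGCGCA, bound by NRF1 (nuclear respiratory factor 1, a classical activator of respiratory chain genes), CCGGAAG of GABP and other ETS factors, AAGATGGCG of YY1, TGACCTTG and its shorter form AAGGTCA of the ERR receptors, and CACCC and GGGCGGGG of the KLF and SP families. GCGCATGC with its reverse GCATGCGC overlaps TGCGCA, as in the run TGCGCATGCGC of Ndufaf4, where also GGGTG (the reverse of CACCC) shares a base with GGGCGGGG. The full NRF1 motif stood in 8 of 74 members' promoters (10.8%) beside 2.99% of the 17492 protein-coding genes' promoters and 2.32% of all 27025, and its members were Atp5g2, Atp5k, Atp5l, Cox6a1, Ndufa6, Ndufa8, Ndufaf4 and Sdhb. Of these 8 genes Ndufaf4 was the 1 that passed the test. TGCGCA stood in 14 (18.9%, against 8.28% of coding genes), of which Ndufa5, Ndufa9, Ndufaf4 and Sdha were lower. CCGGAAG stood in 13 (17.6%, against 9.13%), of which Ndufaf8 was lower.

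CACCC, the short core that KLF factors bind, stood in 31 of the 74 members' promoters (41.9%) beside 53.2% of those of coding genes, and in 6 of the 11 lower members with a promoter. Every promoter of a lower member shown above holds it on either strand. No rule was set for which promoters to show, so those shown do not stand for all 11. GGGCGGGG stood in 13 (17.6%, against 21.7%), TGACCTTG in 3 (4.05%, against 1.15%), AAGGTCA in 5 (6.76%, against 3.58%) and AAGATGGCG in 0 (0.697% of coding genes). The Cox7a1 promoter held no exact match to any of the 8 motifs. Variants of these motifs were not searched, so this does not show that the promoter lacks a KLF or SP site. A match describes the letters in this window and is not a measured binding site.

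Genes that act before, beside or on the respiratory chain included further lower ones. The same fit called 7 of 18 citric acid cycle and pyruvate genes lower and 0 higher, with a median of -0.26. Over all genes 8.35% were lower and 6.22% higher, and among genes with a mean log2 of at least 10 the shares were 15.8% and 11.7%. Suclg2 and Suclg1, subunits of succinyl-CoA ligase, which makes the succinate that complex II uses, fell by 0.82 and 0.44 on the log2 scale (limma adjusted p = 0.00653 and 0.00848), and Idh2, the mitochondrial NADP isocitrate dehydrogenase, fell by 0.66 (limma adjusted p = 0.04). Among 18 electron carrier and coupling genes 6 were lower and 0 higher (median -0.29). Dhodh, a pyrimidine synthesis enzyme that hands electrons to coenzyme Q, fell by 0.80 (limma adjusted p = 0.00232). Coq7 and Pdss2 of coenzyme Q synthesis fell by 0.74 and 0.60 (limma adjusted p = 0.003 and 0.0324). Without 1 array the lower calls were 2 in the citric acid cycle list, or 3 where evGFP replicate 3 was left out. Among electron carriers they were 2 without evGFP replicate 1, evGFP replicate 2 or GFP-KLF2 replicate 2, 3 without GFP-KLF2 replicate 1 and 4 without either of the other arrays. After cyclic loess the citric acid cycle and carrier lists had 2 and 3. The difference between these lists and the 91 members was not tested.

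Assembly genes outside the Ndufaf symbols were also among those that fell. Over all genes 8.35% were lower and 6.22% higher, and among genes with a mean log2 of at least 10 the shares were 15.8% and 11.7%. In complexes I, II, III and V together 5 of 19 assembly genes were lower and 0 higher (median -0.24), among them Sdhaf1, which helps to insert the iron-sulfur clusters of Sdhb (-0.57, limma adjusted p = 0.00819), Atpaf1, a chaperone of the ATP synthase head (-0.54, limma adjusted p = 0.0272), and Acad9, a complex I assembly factor (-0.52, limma adjusted p = 0.00741). The 5 became 2 without evGFP replicate 2, GFP-KLF2 replicate 1 or GFP-KLF2 replicate 2 and 3 without evGFP replicate 1. Of 17 complex IV assembly genes 2 were lower and 1 higher (median -0.05, and 0.01 after cyclic loess). The lower ones were Lrpprc, which stabilises mitochondrial mRNAs (-0.62, limma adjusted p = 0.00357), and Coa7 (-0.60, limma adjusted p = 0.00863), and the higher one was Pet100, a chaperone of complex IV (0.39, limma adjusted p = 0.0275), which did not pass in any of the 6 fits without 1 array.

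The machinery that makes the mitochondrially encoded partners of these subunits was measured through the mitochondrial ribosome, of whose 76 proteins 23 were lower (30.3%) and 0 higher, with a median of -0.19. Mrps27, Mrps28 and Mrps5 of the small subunit led with -0.72, -0.69 and -0.65 (limma adjusted p = 0.00342, 0.00405 and 0.00621). Over all genes 8.35% were lower and 6.22% higher, and among genes with a mean log2 of at least 10 the shares were 15.8% and 11.7%. Of 16 genes of mitochondrial DNA expression 4 were lower and 0 higher (median -0.28), namely the helicase Twnk (-0.44), the elongation factors Tufm (-0.41) and Gfm1 (-0.39) and the DNA-packing factor Tfam (-0.31), with limma adjusted p from 0.0194 to 0.0399. Of 24 protein import genes 6 were lower and 0 higher (median -0.20), led by the outer membrane channel Tomm40 (-0.62, limma adjusted p = 0.00997) and the inner membrane import proteins Timm9 and Timm21 (-0.61 and -0.43, limma adjusted p = 0.0186 and 0.0332). The 1 gene of mitochondrial DNA with a probe set of its own, ND5 of complex I, differed by 0.21 (limma adjusted p = 0.443), with 13.01, 12.65 and 12.59 in evGFP and 13.01, 13.12 and 12.74 in GFP-KLF2 arrays, and the groups overlapped. Without evGFP replicate 1 or 2, or GFP-KLF2 replicate 1, 0 genes of mitochondrial DNA expression passed, and without each of the other 3 arrays 1 did. The lower calls of the mitochondrial ribosome were 10 without evGFP replicate 1, 9 without evGFP replicate 2, 11 without GFP-KLF2 replicate 1 and 12 without GFP-KLF2 replicate 2. Those of import were 0 without evGFP replicate 2, 2 without GFP-KLF2 replicate 2 and 1 without evGFP replicate 1, GFP-KLF2 replicate 1 or GFP-KLF2 replicate 3. After cyclic loess the ribosome, DNA expression and import lists had 15, 0 and 2 lower.

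Among 16 regulators of mitochondrial genes 2 were lower (12.5%) and 1 higher (6.25%), and the median was 0.00. Over all genes 8.35% were lower and 6.22% higher. Ppargc1b and Pprc1 encode coactivators of the PGC-1 family, which turn on respiratory genes together with NRF1 and ERR factors. Ppargc1b fell by 0.90 on the log2 scale (limma adjusted p = 0.00439), from 7.86, 7.85 and 7.95 in evGFP to 6.75, 7.19 and 7.02 in GFP-KLF2 arrays. Pprc1 fell by 0.67 (limma adjusted p = 0.00515), from 10.42, 10.34 and 10.29 to 9.53, 9.74 and 9.77. Ppard, a lipid-sensing nuclear receptor, rose by 0.41 (limma adjusted p = 0.0188). The higher calls among regulators numbered 1 without evGFP replicate 3 and 0 without any 1 of the other arrays. The best known member of the family, Ppargc1a, lay at the floor of the arrays (3.78 ± 0.03 and 3.60 ± 0.13) and did not pass. Nrf1 itself differed by -0.33 (8.64, 8.65 and 8.62 against 8.32, 8.10 and 8.51, limma adjusted p = 0.105). Gabpa, Esrra, Yy1 and Myc differed by 0.16, 0.14, 0.01 and 0.08 and did not pass.

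**Figure D4:**
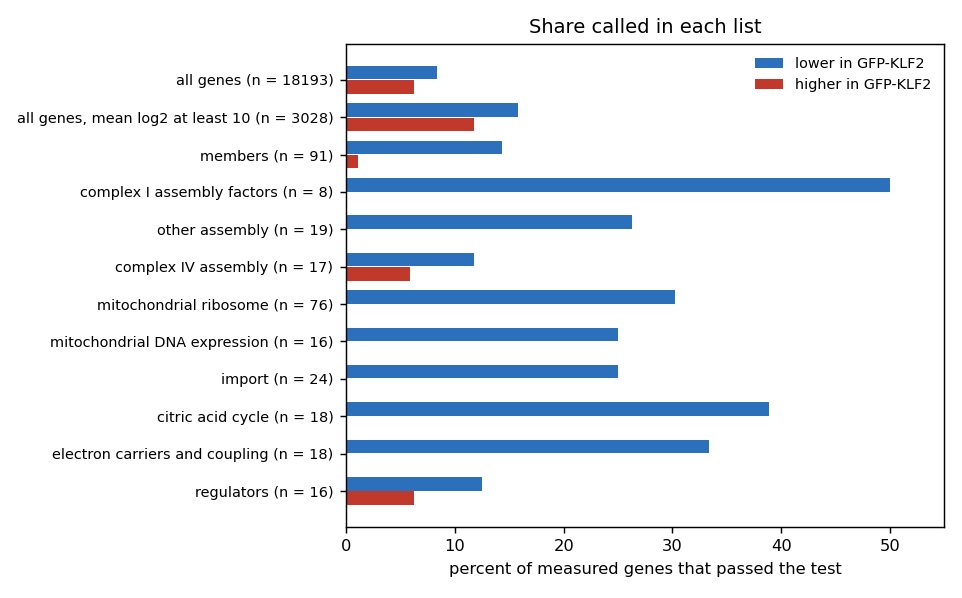
Percent of measured genes that passed the limma test (x axis, from 0), lower and higher in GFP-KLF2 cells, for all genes, bright genes, the 91 members and the lists of related mitochondrial genes (y axis, with n). The members are at 14.3% lower and bright genes at 15.8%, and the citric acid cycle, electron carriers and mitochondrial ribosome are at 38.9%, 33.3% and 30.3%; these contrasts were not tested.

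Which members passed depended on single arrays and on the normalization. The lower calls numbered 4 without evGFP replicate 1, 5 without evGFP replicate 2, 8 without evGFP replicate 3, 5 without GFP-KLF2 replicate 1, 4 without GFP-KLF2 replicate 2 and 8 without GFP-KLF2 replicate 3. Ndufa4, Ndufaf4, Ndufaf6 and Atp5g1 passed in all 6 of these fits, and Ndufs1 and Ndufa9 in none. Cyclic loess, which corrects intensity-dependent differences between arrays, left 6 lower members (Ndufa4, Ndufaf4, Ndufaf5, Ndufaf6, Atp5g1 and Sdha) and 2 higher (Cox7a1 and Cox7a2l), and brought the median to -0.02. Over all genes it also turned the balance of calls, from 1131 higher and 1519 lower to 1388 higher and 961 lower. Centring on array medians gave 1085 and 1614, and quantile normalization 1177 and 1435. For the Actb control probes, the signal at the 3' end minus that at the 5' end on the log2 scale, a sign of RNA quality, was 0.111 to 0.121 in evGFP and 0.077 to 0.084 in GFP-KLF2 arrays, so that it separated the groups by a small amount. For the Gapdh controls the same measure overlapped, at -0.179 to -0.116 and -0.169 to -0.139. The part of RNA quality in these results was not tested.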

How the data were processed

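RNA of 3 evGFP and 3 GFP-KLF2 samples of sorted CD8 T cells was measured on Affymetrix mouse arrays. As the labels and methods state, the authors used RMA, which subtracts background, equalises the arrays' quantiles and summarises each probe set, and the deposited intensity values are linear. Tool versions and a genome build for them are not given in the sources used here. Their log2 was taken, 64 control probe sets of 45101 were removed, and the other 45037 were fitted with limma 3.58.1 in R 4.3.3 (1 constant per group, 2-sided, Benjamini-Hochberg adjusted). The methods print the threshold as 0.046%; an adjusted p under 0.046 was used here and 0.00046 was an alternative. Of 34945 probe sets annotated to 1 gene, 180 belonged to members, and all 91 members were found in RefSeq. The brightest probe set stood for each gene, and signal near the floor or saturation limits what a probe set can show. The labels call the replicates biological and 3 arrays per group limit the precision: the smallest exact 2-sided permutation p for 3 against 3 is 0.1, so single values were tested in the limma fit alone.

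The members, the lists, the tests and the rule for named genes were chosen with earlier results of these data known. Named were members passing with a log2 difference of at least 1 in size, up to 5 passing members of each class with the largest differences, all of complex II, the core complex I subunits, the tissue-limited isoforms with their partners, and up to 3 passing genes of each other list. Tfam, Cd8b1, Zbtb7b, Cd4, Csf1r, Lyz2, Actn2, Ucp1, ND5, Ppargc1a, Nrf1, Gabpa, Esrra, Yy1, Myc and the members named that are outside this rule, such as Cyc1, Atp5a1, Atp5b and Cox7a2l, were named after their values were seen.

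The replicate numbers, which both groups share in the labels, were checked for pairing: the deviations from the group means of arrays with equal numbers correlated at 0.33, 0.44 and 0.47 over all probe sets, each over 0.1, so that the arrays were taken as paired and the fit with the number as a block was an alternative. Other alternatives were thresholds of 0.05 and 2-fold, removal of probe sets with a mean log2 under 6 and averaging a gene's probe sets. Probe sets with the suffix _x, _s or _a were left out in another. The rest were quantile normalization, cyclic loess, median centring, array weights, a robust prior with an intensity trend and leaving out each array. The comparison with genes of a mean log2 of at least 10 was chosen after seeing the data. Promoters were read with Python 3.11.15 and pandas 2.3.3, and figures drawn with matplotlib 3.10.9.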

Additional observations from a re-analysis of the deposited data

How the results depend on the processing

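No called result turned direction under the alternatives run, while the medians of complex IV and of complex IV assembly, both near 0, changed sign after cyclic loess. With the replicate block, the lower calls were 17 (13 of them shared with the fit without it), with 1 in complex III and 3 in ATP synthase. The block changed no other class count by over 1.5 times. Over all genes it raised the lower calls from 1519 to 2203 and the higher ones from 1131 to 1561. Removal of dim probe sets gave 21 lower and 2 higher members, with 9 lower in complex I, 2 in complex III and 3 in ATP synthase, 2 higher in complex IV, 11 lower in the citric acid cycle and 2 higher in complex IV assembly. An intensity trend with a robust prior gave 25 lower and 3 higher members, with 11 lower in complex I, 2 in complex III and 5 in ATP synthase, 2 higher in complex IV, 1 in ATP synthase and 2 in complex IV assembly, and 10 lower in import. The mean of all probe sets gave 18 lower and 2 higher members and array weights 16 and 2; in both, complex III had 1 lower, complex IV 2 higher and complex IV assembly 2 higher, and with the mean ATP synthase had 3 lower. Shares over all genes are not given here for dim probe set removal, the intensity trend, the probe set mean and array weights. Their counts therefore do not set the members apart from other genes. Leaving out probe sets with the suffix _x, _s or _a gave 8 lower members, 3 in complex I, 2 among assembly factors and 0 in ATP synthase. It gave 3 lower in the citric acid cycle and 2 higher in complex IV assembly. This setting measures fewer members, 73. Cyclic loess gave a median of -0.0211 over members, 6 lower and 2 higher members, with 0 lower in complex I, 1 in complex IV, 2 in the citric acid cycle, 3 among electron carriers, 2 in import, 0 in mitochondrial DNA expression and 15 in the mitochondrial ribosome, and 2 higher in complex IV and 2 in complex IV assembly. Quantile normalization gave 10 lower and 2 higher members, with 3 lower in complex I, 2 higher in complex IV and 2 lower in mitochondrial DNA expression. Median centring and a threshold of 0.05 each gave 1 lower in complex III. At 0.00046, 0 members and 0 genes of any list passed, and at 2-fold 0 members were lower, Cox7a1 stayed, and the higher and lower calls of all other lists were 0. The cause of these differences was not tested, beyond the stricter thresholds and fewer probe sets themselves.

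Leaving out 1 array gave 4 to 8 lower and 0 to 1 higher members. The lower calls were 0 to 2 in complex I, 2 to 3 among assembly factors, 0 to 1 in complex II, 0 to 1 in complex III and 1 to 2 in complex IV, where the higher calls were 0 to 1. In the other lists they were 2 to 3 in the citric acid cycle, 2 to 4 among electron carriers, 0 to 4 in import, 0 to 1 in mitochondrial DNA expression, 9 to 20 in the mitochondrial ribosome and 2 to 5 in other assembly, while the higher calls were 0 in complex IV assembly and 0 to 1 among regulators. The median over members stayed at -0.10 to -0.07. Probe sets near the floor, such as those of Cox7b2, Ndufb4 and Ppargc1a, limit what can be seen for those genes.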

Other observations

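Probe sets shared by several related genes were counted in no class. The bright probe sets shared by Ndufb4 and its copies Ndufb4b and Ndufb4c differed by -0.09 and -0.15 between GFP-KLF2 and evGFP cells on the log2 scale, while the probe set annotated to Ndufb4 alone lay at the floor, at 4.17 and 4.14. The brighter probe set shared by Ndufa11 and Ndufa11b, of the complex I membrane arm, differed by 0.03, and the one shared by Ndufs6 and Ndufs6b differed by -0.20, and none of these passed the limma test. Of the 89 probe sets of members that were not the brightest of their gene, 5 were lower and 0 higher. Beside those of Ndufaf4 and Sdha these were 1 of Atp5a1 (-0.32, limma adjusted p = 0.0343) and 2 of Ndufc2, an accessory subunit of complex I (-0.30 and -0.34, limma adjusted p = 0.0451 and 0.0224), whose brightest probe set differed by -0.25 and did not pass.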
